A study of Mus musculus with 30 samples.

Results

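The results concern 10 antiviral genes that type I interferon induces in most cells: Isg15, Ifit1, Ifit3, Ifi44, Mx2, Rsad2, Cmpk2, Irf7, Zbp1 and Bst2. They were taken by symbol from the 24746 gene symbols counted in each of 30 libraries of mouse intestine, and all 10 were present, had reads in every library and passed the filter on low counts. All mice were of the C3H/HeOuJ strain, and RNA of whole tissue was read as 3′ tags, in which each transcript is counted near its poly(A) tail. Terminal ileum came from mice of 6 and 10 weeks that were germ-free (GF), carried a specific-pathogen-free microbiota (SPF), or were born germ-free and received SPF microbiota in week 5 of life (COL). Distal colon came from SPF and COL mice of 10 weeks, without treatment or after 4 days of 1.5% dextran sulfate sodium (DSS), which damages the colonic epithelium, and 2 days of water. Each of the 10 groups had 3 libraries. Nothing in the labels says whether each library had a mouse of its own. The p-values therefore cover sample-to-sample spread alone, and part or all of it may be technical.

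Type I interferons bind a receptor made of Ifnar1 and Ifnar2, and type III interferons bind Ifnlr1 with Il10rb, a receptor found chiefly on epithelial cells. Both activate the kinases Jak1 and Tyk2. A complex that holds Irf9 then binds the interferon-stimulated response element (ISRE) in front of antiviral genes and raises their transcription. Interferon-gamma acts mainly through a different element, the gamma-activated site (GAS), and raises an overlapping set of genes.

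The promoter stretches that hold an ISRE core are shown because the genes were grouped as interferon targets. In RefSeq (build GRCm38.p6) 8 of the 10 genes had an entry, which excluded Mx2 and Zbp1, and each window ran from 250 bases before to 50 bases after the transcription start. The ISRE core was searched as GAAANNGAAA and its reverse complement TTTCNNTTTC, with overlapping matches counted. It was present in 5 of the 8 windows, against 1131 of all 32851 windows (3.44%). Isg15 held 3 overlapping matches (chr4:156200855-156200916, minus strand), Ifit1 2 (chr19:34640765-34640833, plus strand), Ifit3 2 (chr19:34583353-34583436, plus strand), Rsad2 1 (chr12:26456543-26456592, minus strand) and Bst2 2 overlapping matches (chr8:71537567-71537622, minus strand). Each line below reads 5′ to 3′ on the strand of its gene, with the matches in capitals.
Isg15: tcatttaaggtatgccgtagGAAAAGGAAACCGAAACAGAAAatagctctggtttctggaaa
Ifit1: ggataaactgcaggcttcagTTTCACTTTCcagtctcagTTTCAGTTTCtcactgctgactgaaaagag
Ifit3: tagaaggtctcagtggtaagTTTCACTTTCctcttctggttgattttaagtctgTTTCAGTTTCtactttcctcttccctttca
Rsad2: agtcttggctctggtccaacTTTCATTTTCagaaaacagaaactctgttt
Bst2: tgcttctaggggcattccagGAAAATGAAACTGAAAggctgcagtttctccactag
In these stretches Ifit1 and Ifit3, of the same Ifit gene cluster on chromosome 19, each carried the core 2 times, both times on the same strand. The windows of Ifi44, Cmpk2 and Irf7 held no match. The GAS core, searched as TTCNNNGAA, which is its own reverse complement, was in 1 of the 8 windows, that of Bst2, and in 8.3% of all windows. A match is a description of the letters and shows neither binding nor response.

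In mm10 with GENCODE vM21, Ifit3 (chr19:34583531-34588731) and Ifit1 (chr19:34640871-34650009) lie on the plus strand with 52139 bases between them. Rsad2 (chr12:26442746-26456452, minus strand) and Cmpk2 (chr12:26469204-26479837, plus strand) are neighbours transcribed away from each other, with 12751 bases between their starts. Isg15 lies at chr4:156199424-156200818, Ifi44 at chr3:151730922-151749960, Irf7 at chr7:141262706-141266481, Zbp1 at chr2:173206612-173218923 and Bst2 at chr8:71534255-71537456, all on the minus strand. Mx2 (chr16:97535308-97560900, plus strand) is annotated as a polymorphic pseudogene, which means that some mouse strains carry a broken copy, and the other 9 are protein-coding. Over its last 45 bases Irf7 overlaps Phrf1 on the opposite strand, and because the strand setting of the counting is not given in the sources used here, reads of the 2 genes cannot be told apart there. Reads shared with the near copies Ifit3b and the Ifit1bl genes could be lost or split in counting, so Ifit1 and Ifit3 are less certain than the other members.

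A colon library held 3830539 to 6791455 reads counted in genes and an ileum library 2233837 to 9088573. A list of ileum epithelial genes summed to 15143 CPM or more in every ileum library and to 287 CPM or less in every colon library, where CPM scales the counts of a library to the same total of counted reads. The 10 genes were modestly expressed: Irf7 had 15505 reads over the 30 libraries, Ifit1 8503, Cmpk2 7960, Rsad2 6798, Isg15 3673, Zbp1 3505, Ifit3 1630, Ifi44 893, Bst2 802 and Mx2 563. Differences are log2 fold changes ± standard error from the quasi-likelihood test of edgeR, with p adjusted by Benjamini and Hochberg over all genes tested, and a gene is said to rise or fall at an adjusted p under 0.05. In data simulated at this depth with the same spread for every gene, 200 genes of low and high counts were changed. The test of SPF against GF ileum at 6 weeks recovered 34% of 2-fold and 78% of 4-fold changes, and the test of DSS in SPF colon 16% and 77%. A missed 2-fold change was thus common there. Genes too low for the filter counted as missed, and fewer genes were changed than passed in the real data. These shares are therefore not the recovery to be had for the 10 genes.

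**Figure D1:**
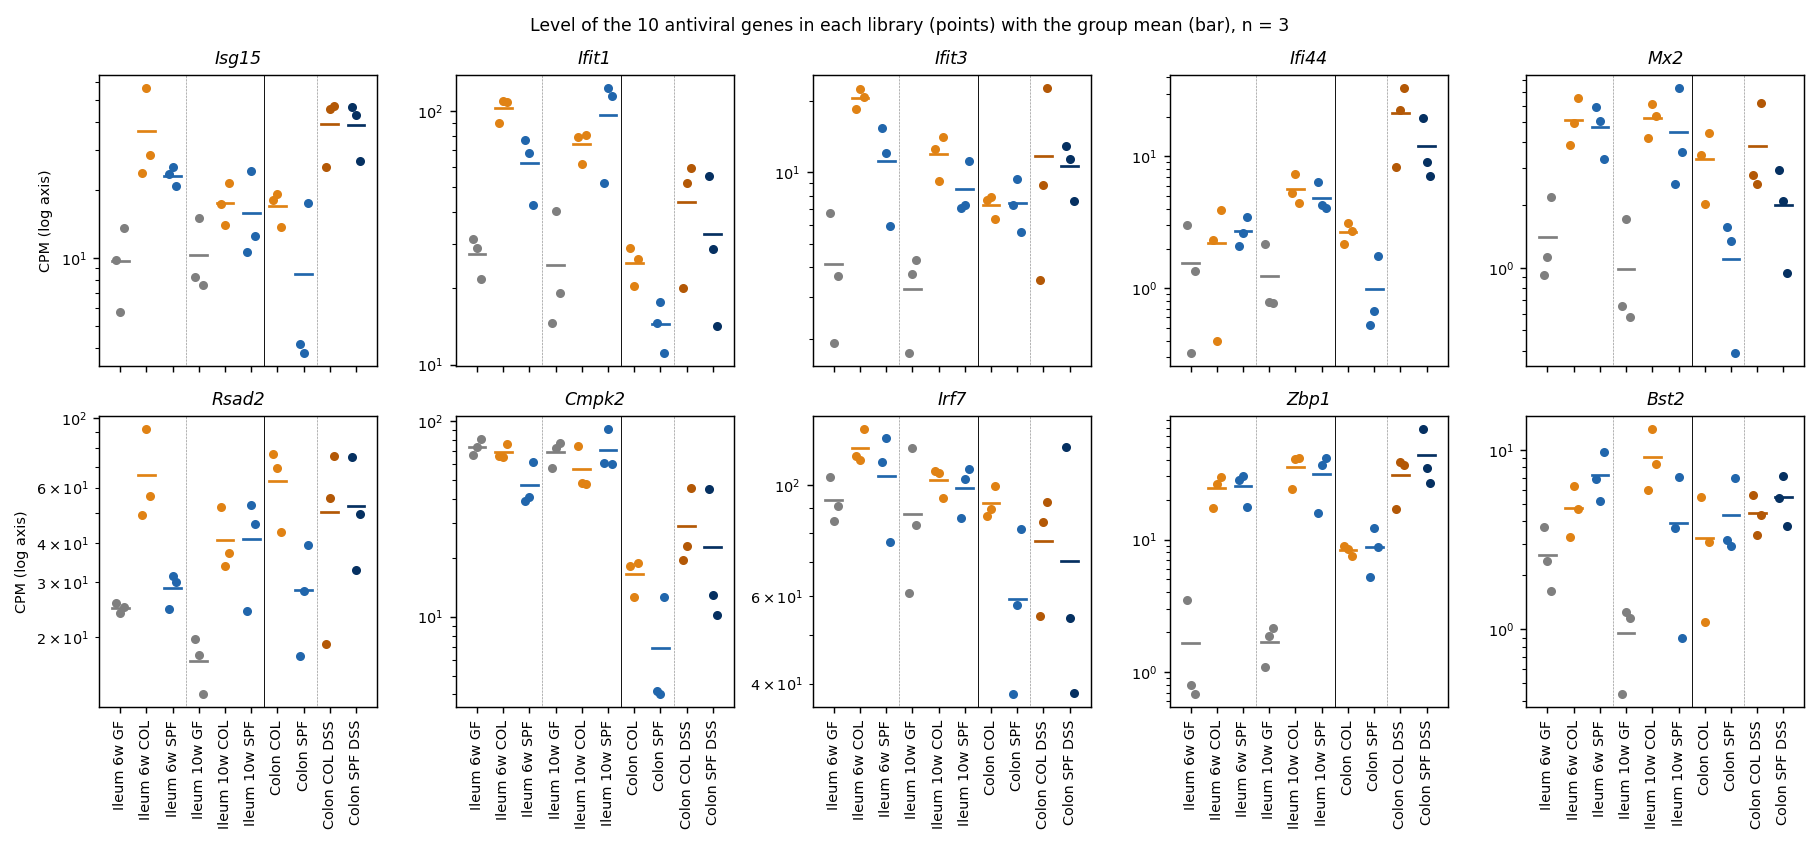
CPM on log axes of each of the 10 genes in each library (points) and the mean of each group (bar, n = 3), with ileum at 6 weeks, ileum at 10 weeks, untreated colon and DSS-treated colon set apart by vertical lines. Zbp1 is at 0.681 to 3.48 CPM in the 6 GF ileum libraries and at 15.8 to 41.4 CPM in the 12 colonized ileum libraries, whereas Cmpk2 and Irf7 overlap between most of the ileum groups.

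Ileum of GF mice was compared with that of COL and SPF mice to ask what a microbiota does to antiviral gene expression. At 6 weeks, about a week after COL mice were given microbes, 6 of the 10 genes rose in COL over GF, where 2.78% of all genes rose. The largest difference was that of Zbp1, which encodes a sensor of Z-form nucleic acid that can trigger necroptosis. Its level was 3.48, 0.804 and 0.681 CPM in the GF libraries and 17.2, 26.4 and 29.5 CPM in the COL libraries. The groups were far apart, and the difference of 4.29 ± 0.54 on the log2 scale (19.6-fold, adjusted p = 0.00012) became 5.24 without GF replicate 1, which held 15 of the 25 GF reads. In bulk tissue fewer cells that express a gene and less RNA per cell cannot be told apart, here or below.

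The RNA-binding proteins of the Ifit family also rose at 6 weeks. Ifit3, a partner of Ifit1 in binding viral RNA, was at 6.73, 1.93 and 3.68 CPM in GF and at 18.4, 22.5 and 20.8 CPM in COL ileum (2.60 ± 0.42, adjusted p = 0.00033). Ifit1, which binds viral RNA with foreign 5′ ends, was at 31.3, 28.8 and 21.8 CPM in GF and at 89.6, 109 and 108 CPM in COL ileum (2.16 ± 0.40, adjusted p = 0.0048). For both genes every COL library lay above every GF library. Here and below, a lack of overlap describes the values and is not a second test beside the adjusted p. It was common with 3 libraries against 3. In SPF against GF ileum at 6 weeks, 25.6% of all genes were lower without overlap. Isg15, a ubiquitin-like protein attached to new and viral proteins, was at 9.74, 5.79 and 13.6 CPM in GF and at 23.8, 56.5 and 28.6 CPM in COL ileum (2.13 ± 0.39, adjusted p = 0.0023). COL replicate 2 was the highest of its group and no values crossed between the groups.

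Rsad2, or viperin, which makes a nucleotide that stops viral RNA polymerases, was almost level among the GF libraries at 25.8, 23.9 and 24.9 CPM. It was at 49.0, 92.4 and 56.3 CPM in COL ileum at 6 weeks, so that every COL library exceeded every GF library (1.65 ± 0.28, adjusted p = 0.00079). Mx2, of the dynamin-like Mx family of virus inhibitors, was at 0.928, 1.13 and 2.18 CPM in GF and at 3.87, 4.93 and 6.53 CPM in COL ileum (2.04 ± 0.53, adjusted p = 0.022). The groups did not overlap, but with 4 to 50 reads a library the call of Mx2 was lost without GF replicate 1 or 2 or COL replicate 2 or 3, at adjusted p of 0.056 to 0.12. Bst2 (1.17 ± 0.51, adjusted p = 0.22), Ifi44 (0.86 ± 0.66, adjusted p = 0.56), Irf7 (0.60 ± 0.22, adjusted p = 0.13) and Cmpk2 (0.15 ± 0.21, adjusted p = 0.77) did not pass. Over all 10 genes the median log2 difference was 1.85, against -0.02 over all genes tested, and 5 or 6 passed with any 1 library left out.

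SPF ileum at 6 weeks, set against the same GF libraries, also had 6 genes that rose, where 4.37% of all genes did. Zbp1 was at 28.2, 29.9 and 17.5 CPM (4.30 ± 0.54, adjusted p = 4.7e-05), and its log2 difference was 5.25 without GF replicate 1. Ifit3 was at 15.4, 12.1 and 5.94 CPM in SPF ileum (1.71 ± 0.41, adjusted p = 0.0093), with SPF replicate 3 below the highest GF library. Isg15 at 23.5, 25.2 and 20.7 CPM (1.44 ± 0.39, adjusted p = 0.024) and Ifit1 at 76.9, 68.2 and 42.4 CPM (1.43 ± 0.39, adjusted p = 0.037) stood above all GF libraries. So did Mx2 at 5.88, 5.06 and 3.33 CPM (1.90 ± 0.52, adjusted p = 0.023). Bst2, known as tetherin because it holds budding virus particles on the cell surface, was at 6.93, 5.17 and 9.70 CPM against 3.71, 2.41 and 1.63 CPM in GF ileum (1.71 ± 0.50, adjusted p = 0.032).

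Of these 6 calls only that of Zbp1 held with each library left out in turn, and the others were lost at adjusted p of 0.050 to 0.14. The number of genes that rose was 1 without GF replicate 2 and 1 without SPF replicate 1, 2 without SPF replicate 2 and 3 without GF replicate 1. Rsad2 in SPF ileum was at 24.7, 31.5 and 30.1 CPM and overlapped the GF libraries (0.41 ± 0.28, adjusted p = 0.44). Cmpk2, a mitochondrial nucleotide kinase, was the only member whose SPF libraries all lay below the GF ones in CPM, at 39.1, 40.6 and 62.0 against 66.6, 73.6 and 80.4 (-0.46 ± 0.21, adjusted p = 0.22). In CPM, 25.6% of all genes had groups that were lower without overlap. The test also applies a scaling factor to each library, which the CPM used to judge overlap leave out. At 6 weeks these factors were 1.022 to 1.095 in GF and 0.892 to 0.997 in SPF ileum, so the gap of Cmpk2 depends on the scaling. The COL and SPF comparisons share the GF libraries and are set side by side for that reason, with no test of their overlap.

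At 10 weeks 7 genes rose in COL over GF ileum, where 5.1% of all genes rose, and 5 in SPF over GF ileum, where 4.22% did. Zbp1 was at 1.09, 1.87 and 2.13 CPM in GF, 24.0, 40.5 and 41.4 CPM in COL and 15.8, 36.3 and 41.2 CPM in SPF ileum. Colonized and GF libraries were again far apart (COL 4.34 ± 0.53, adjusted p = 3.2e-05, SPF 4.20 ± 0.54, adjusted p = 7.4e-05). With each library left out in turn the log2 difference of Zbp1 in COL lay between 4.10 and 4.52, and its call was lost neither there nor under any other alternative tried.

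Bst2 was at 0.435, 1.25 and 1.16 CPM in GF ileum at 10 weeks and at 6.00, 13.1 and 8.38 CPM in COL ileum, with a wide gap between the groups (3.20 ± 0.56, adjusted p = 0.0004). In SPF ileum Bst2 was at 3.69, 7.10 and 0.895 CPM, the last value resting on 2 reads in the shallowest library and lying among the GF values (2.09 ± 0.58, adjusted p = 0.028). Without SPF replicate 2 that difference was 1.36 with an adjusted p of 0.19, and the call was also lost without any 1 of the 3 GF libraries (adjusted p from 0.07 to 0.19 over the 4 losses).

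Rsad2 was at 19.8, 17.6 and 13.2 CPM in GF, 52.0, 33.8 and 37.1 CPM in COL and 24.4, 52.9 and 46.1 CPM in SPF ileum at 10 weeks. Both colonized groups lay above GF (COL 1.29 ± 0.29, adjusted p = 0.0051, SPF 1.33 ± 0.29, adjusted p = 0.0063), and the SPF call was lost without GF replicate 3 at an adjusted p of 0.052. Ifit1 was at 14.6, 40.2 and 19.2 CPM in GF, 79.3, 61.6 and 80.8 CPM in COL and 51.8, 124 and 115 CPM in SPF ileum. GF replicate 2 was the highest GF library and still below every colonized one. Ifit1 rose in SPF (2.01 ± 0.40, adjusted p = 0.0068) with any library left out and in COL (1.57 ± 0.40, adjusted p = 0.02), where the call was lost without COL replicate 1 or 3 or GF replicate 1 or 3 at adjusted p of 0.059 to 0.10. With the fit restricted to the SPF and GF libraries of that age, the SPF calls of Ifit1 (adjusted p = 0.14) and Mx2 were lost, Bst2 did not pass the filter on low counts, and 2 genes rose in place of 5.

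Ifit3 was at 1.74, 3.74 and 4.27 CPM in GF, 12.6, 9.18 and 14.1 CPM in COL and 7.09, 7.30 and 11.2 CPM in SPF ileum at 10 weeks. It rose in COL (1.85 ± 0.43, adjusted p = 0.0053) and missed the threshold in SPF (1.37 ± 0.44, adjusted p = 0.065), although in both no library overlapped GF. Mx2 was at 0.653, 1.71 and 0.582 CPM in GF, 4.19, 6.12 and 5.35 CPM in COL and 2.51, 7.30 and 3.58 CPM in SPF ileum, again without overlap. It rose in COL (2.33 ± 0.56, adjusted p = 0.0073, 3.01 without GF replicate 2) and in SPF (2.16 ± 0.57, adjusted p = 0.021, 2.84 without GF replicate 2). The call of Mx2 in COL was lost without GF replicate 3 (adjusted p = 0.054), and that in SPF without SPF replicate 2, where the difference was 1.51, or GF replicate 1 or 3 (adjusted p from 0.096 to 0.15).

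Ifi44 was at 2.18, 0.779 and 0.776 CPM in GF, 5.28, 7.38 and 4.46 CPM in COL and 6.35, 4.26 and 4.03 CPM in SPF ileum at 10 weeks, with GF below all. It rose in COL (2.21 ± 0.66, adjusted p = 0.034) and not in SPF (2.04 ± 0.67, adjusted p = 0.074). The COL call was lost without any 1 COL library or without GF replicate 2 or 3 (adjusted p from 0.051 to 0.15), and the difference was 2.81 without GF replicate 1. Isg15, which had risen at 6 weeks, was at 8.27, 14.96 and 7.57 CPM in GF, 17.3, 14.04 and 21.4 CPM in COL and 10.6, 24.3 and 12.5 CPM in SPF ileum at 10 weeks. These groups overlapped (COL 0.76 ± 0.39, adjusted p = 0.27, SPF 0.66 ± 0.40, adjusted p = 0.40).

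Without GF replicate 3 the number of genes that rose at 10 weeks was 4 in COL and 2 in SPF ileum, and without SPF replicate 2 or GF replicate 1 it was 3 in SPF ileum. The median log2 difference of the 10 genes was 1.71 in COL and 1.69 in SPF ileum, against 0.01 and 0.02 over all genes. Whether the response to colonization differed between 6 and 10 weeks was tested as an interaction. None of the 10 genes passed for COL or for SPF, where 0.144% and 0.0151% of all genes did, with 2 and 1 genes at an unadjusted p under 0.05 and 0 and 0 by DESeq2. For Isg15 in COL the interaction was -1.36 ± 0.55 (adjusted p = 0.38) and for Bst2 2.03 ± 0.75 (adjusted p = 0.32).

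Irf7 and Cmpk2 passed in none of the comparisons of ileum groups. Irf7, the transcription factor that drives the interferon-alpha genes, was at 104, 84.7 and 90.7 CPM in GF and at 114, 112 and 130 CPM in COL ileum at 6 weeks, a gap without overlap that missed the threshold and passed only with the 6 libraries concerned fitted alone (adjusted p = 0.039, from 0.039 to 0.41 over the alternatives). At 10 weeks Irf7 was at 60.7, 119 and 83.3 CPM in GF, 107, 106 and 94.1 CPM in COL and 86.1, 103 and 107 CPM in SPF ileum, and the groups overlapped. The 95% intervals of the log2 difference of Irf7 at 10 weeks ran from -0.23 to 0.67 in COL and from -0.24 to 0.67 in SPF. Cmpk2 was at 57.5, 73.1 and 77.0 CPM in GF, 74.1, 48.2 and 47.4 CPM in COL and 60.8, 91.1 and 60.4 CPM in SPF ileum at 10 weeks, with intervals from -0.73 to 0.15 in COL and from -0.36 to 0.52 in SPF. A change of 2-fold in Irf7 or Cmpk2 in either direction lies outside these intervals.

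**Figure D2:**
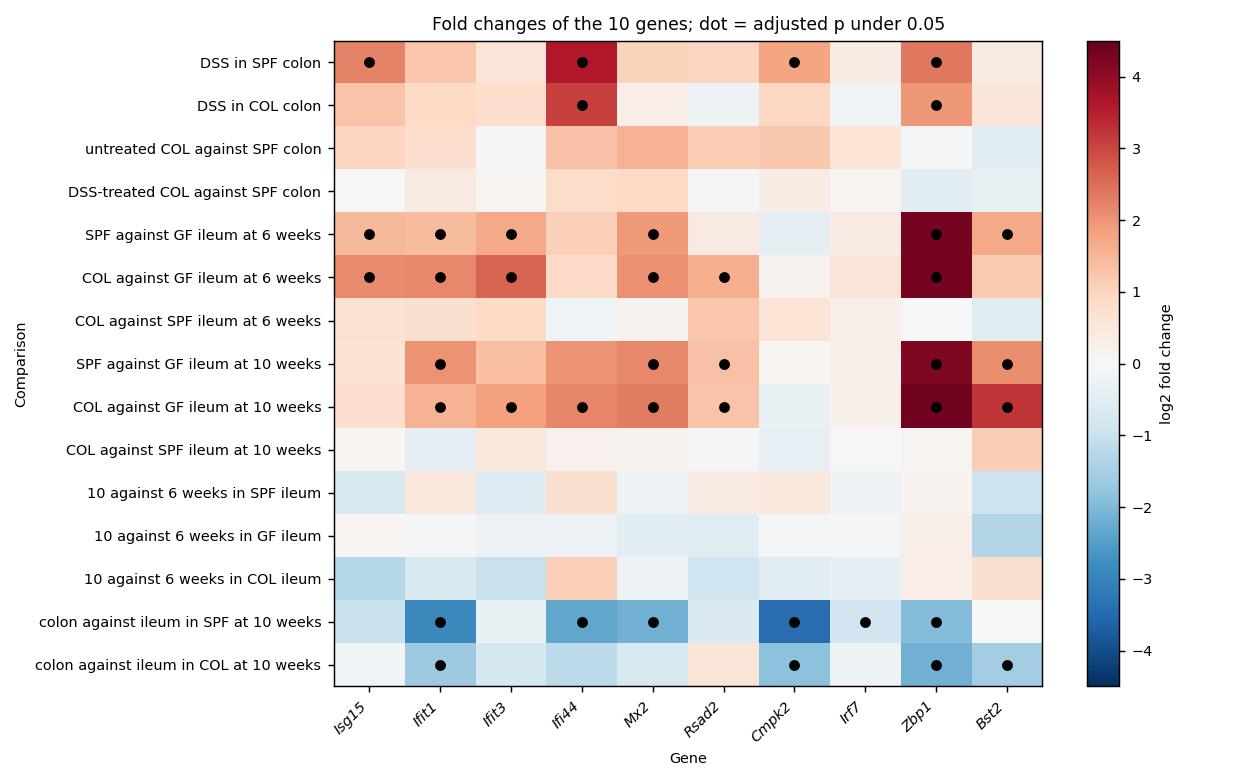
Log2 fold change of each gene (columns) in each of 15 comparisons (rows), red for higher and blue for lower, with a dot where the adjusted p was under 0.05. In the 4 comparisons of colonized with GF ileum the genes that passed are all higher, with Zbp1 between 4.20 and 4.34, and across tissues the genes that passed are all lower in colon.

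COL and SPF ileum were compared to ask whether late colonization leaves a mark on these genes. None of the 10 passed at 6 weeks, where 0.0982% of all genes did, or at 10 weeks, where 0.0907% did. At an unadjusted p under 0.05 there were 3 genes at 6 weeks and 1 at 10 weeks, and DESeq2 called 1 and 0. At 6 weeks the COL libraries of Cmpk2, Ifit1, Ifit3 and Rsad2 all lay above the SPF ones, where 5% of all genes were higher without overlap. Rsad2 was the nearest to the threshold, at 49.0, 92.4 and 56.3 CPM in COL and 24.7, 31.5 and 30.1 CPM in SPF ileum (1.24 ± 0.28, adjusted p = 0.09). It passed by DESeq2 (0.011), with only the 6 libraries concerned (0.008) and without COL replicate 1 (0.046), and over all alternatives its adjusted p ran from 0.008 to 0.40. At 10 weeks the groups overlapped for all 10 genes, where 10.1% of all genes did not, and the 95% interval for Zbp1 was -0.73 to 1.00.

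Age was compared within each status of the ileum. In COL ileum, 4 genes were lower at 10 than at 6 weeks without overlap, Isg15, Ifit1, Ifit3 and Irf7, where 3.23% of all genes were. Ifi44 went the other way, from a mean of 2.21 to 5.70 CPM, and did not pass (1.08 ± 0.61, adjusted p = 0.37). None of the 10 genes passed the test, where 2.53% of all genes did, with 4 genes at an unadjusted p under 0.05. Isg15 went from 36.3 ± 17.7 CPM (SD, n = 3) to 17.6 ± 3.68 CPM (-1.27 ± 0.38, adjusted p = 0.077) and Rsad2 from 65.9 ± 23.2 to 41.0 ± 9.71 CPM (-0.91 ± 0.27, adjusted p = 0.077). These 2 passed by DESeq2 at 0.027 and 0.043. With only the 6 libraries concerned, 4 genes fell, Isg15, Rsad2, Ifit1 and Ifit3. Without COL replicate 1 of 6 weeks 2 fell, Isg15 and Rsad2, and without COL replicate 1 of 10 weeks 1 did, Rsad2. Over the alternatives the adjusted p ran from 0.016 to 0.27 for Isg15 and from 0.041 to 0.29 for Rsad2. In SPF and in GF ileum 0 genes passed, where 1.37% and 0.0302% of all genes did, with 1 gene each at an unadjusted p under 0.05 and 0 by DESeq2. The mean of Ifi44 was again higher at 10 weeks in SPF ileum, at 4.88 against 2.74 CPM, and did not pass (0.70 ± 0.61, adjusted p = 0.57). In GF ileum Bst2 went from a mean of 2.59 to 0.949 CPM (-1.33 ± 0.59) and Rsad2 from 24.9 to 16.9 CPM (-0.54 ± 0.29), and neither passed (adjusted p = 0.9999 for both).

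In the colon of SPF mice, DSS was compared with no treatment to ask how the genes respond to epithelial injury. There, 4 of the 10 genes rose, where 12.2% of all genes rose. Ifi44, an interferon-induced cytoplasmic protein, was at 0.522, 0.669 and 1.75 CPM in untreated and at 19.7, 9.10 and 7.08 CPM in DSS-treated SPF colon. The untreated values rest on 2, 3 and 9 reads, and the treated ones lay well above them (3.60 ± 0.63, adjusted p = 0.0011). The difference of Ifi44 was 3.01 without DSS replicate 1 and 4.33 without untreated replicate 3. Zbp1 was at 5.22, 12.3 and 8.76 CPM in untreated and at 68.6, 34.9 and 26.7 CPM in DSS-treated SPF colon, also without overlap (2.38 ± 0.41, adjusted p = 0.0011).

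Isg15 was at 4.18, 3.79 and 17.5 CPM in untreated and at 46.3, 43.0 and 26.9 CPM in DSS-treated SPF colon (2.24 ± 0.48, adjusted p = 0.0046). Untreated replicate 3 stood apart from the other two, and without it the difference was 3.34. Cmpk2 was at 4.18, 4.02 and 12.6 CPM in untreated and at 44.9, 12.9 and 10.2 CPM in DSS-treated SPF colon, with overlap between the groups (1.77 ± 0.60, adjusted p = 0.045). The Cmpk2 call was lost without DSS replicate 1, where the difference was 0.76 (adjusted p = 0.27), and without untreated replicate 1 or 2 (adjusted p from 0.14), while without untreated replicate 3 the difference was 2.53. Over all alternatives the adjusted p of Cmpk2 ran from 0.0092 to 0.27. Ifit1 missed the threshold (1.26 ± 0.46, adjusted p = 0.06) and passed without DSS replicate 3 and by DESeq2, with adjusted p from 0.017 to 0.30 over the alternatives.

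DSS in COL colon raised 2 of the 10 genes, where 4.14% of all genes rose. Ifi44 was at 2.16, 3.12 and 2.70 CPM in untreated and at 8.25, 22.6 and 33.2 CPM in DSS-treated COL colon (3.09 ± 0.55, adjusted p = 0.0029). Zbp1 was at 8.97, 8.44 and 7.52 CPM in untreated and at 17.1, 38.6 and 36.7 CPM in DSS-treated COL colon (1.97 ± 0.40, adjusted p = 0.0078). Neither gene overlapped between the groups and both calls held with every library left out. Isg15 at 18.1, 19.3 and 13.7 CPM in untreated and 25.2, 45.4 and 46.8 CPM in DSS-treated COL colon did not overlap either and missed the threshold (1.28 ± 0.45, adjusted p = 0.10). It passed by DESeq2 and with only the 6 libraries concerned, and over the alternatives its adjusted p ran from 0.010 to 0.27. Rsad2 at 76.8, 69.4 and 43.4 CPM in untreated and 19.0, 55.7 and 75.9 CPM in treated COL colon overlapped (-0.24 ± 0.45, adjusted p = 0.81).

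The treated libraries of a group differed from one another in the same order for most genes. SPF DSS replicate 1 was the highest of its group for 9 of the 10 genes and replicate 3 the lowest for 9, and COL DSS replicate 3 was the highest for 8 and replicate 1 the lowest for 8. Irf7, for example, was at 119, 54.2 and 38.2 CPM in DSS-treated SPF colon. An interaction term tested the DSS response of COL against that of SPF colon, and none of the 10 genes passed, where 0% of all genes did, with 0 at an unadjusted p under 0.05 and 0 by DESeq2. The 95% interval of the interaction ran from -1.60 to 0.77 for Zbp1 and from -2.25 to 1.22 for Ifi44, so a response of COL colon 2-fold smaller than that of SPF colon lies inside both. The treated groups themselves overlapped for all 10 genes, where 11.6% of all genes did not, with 0 called where 0.00778% of all genes were, 0 at an unadjusted p under 0.05 and 0 by DESeq2.

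Untreated colon of COL and SPF mice was compared to ask whether late colonization had changed the resting level. None of the 10 genes passed and 0% of all genes did, with 2 of the 10, Mx2 and Rsad2, at an unadjusted p under 0.05 and 0 by DESeq2. The COL libraries were all above the SPF ones for 6 genes, Ifit1, Ifi44, Mx2, Rsad2, Cmpk2 and Irf7, where 7.07% of all genes were higher without overlap. Rsad2 was at 17.5, 28.1 and 39.3 CPM in SPF and at 76.8, 69.4 and 43.4 CPM in COL colon (1.13 ± 0.47, adjusted p = 0.62), and Mx2 at 1.57, 1.34 and 0.389 in SPF and 3.49, 2.02 and 4.43 CPM in COL colon (1.58 ± 0.66, adjusted p = 0.61). Irf7 was at 38.1, 57.6 and 81.5 CPM in SPF and at 86.7, 89.5 and 99.5 CPM in COL colon (0.61 ± 0.37, adjusted p = 0.74). The median over the 10 genes was 0.86, against -0.02 over all genes. Without SPF replicate 3 a single gene passed, Isg15 (2.06, adjusted p = 0.028), whose adjusted p over all alternatives ran from 0.028 to 1.

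Colon was then set against ileum at 10 weeks in untreated mice of the same status. In SPF mice 6 of the 10 genes were lower in colon, where 17.2% of all genes were, and in COL mice 4, where 14.3% were. In SPF mice Cmpk2 differed most, at 4.18, 4.02 and 12.6 CPM in SPF colon against 60.8, 91.1 and 60.4 CPM in SPF ileum (-3.44 ± 0.48, adjusted p = 3.9e-06, -4.21 without colon replicate 3). In COL mice, where Zbp1 differed most, Cmpk2 was at 18.1, 12.7 and 18.9 CPM in colon and 74.1, 48.2 and 47.4 CPM in ileum (-1.86 ± 0.44, adjusted p = 0.0022). In both statuses every colon library lay below every ileum library. Ifit1 at 14.6, 17.6 and 11.1 CPM in SPF colon (-2.89 ± 0.49, adjusted p = 6.2e-05) and 28.9, 20.4 and 26.0 CPM in COL colon (-1.64 ± 0.46, adjusted p = 0.0095) was lower in colon in every library, and so was Zbp1 (SPF -1.95 ± 0.47, adjusted p = 0.0021, COL -2.16 ± 0.46, adjusted p = 0.00072).

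In SPF mice Ifi44 (-2.35 ± 0.69, adjusted p = 0.0087, -3.07 without colon replicate 3), Mx2 (-2.17 ± 0.62, adjusted p = 0.0071) and Irf7 (-0.87 ± 0.33, adjusted p = 0.041) were also lower in colon. The Mx2 call was lost without ileum replicate 2, where the difference was -1.57 (adjusted p = 0.082), and that of Irf7 without colon replicate 1 or 2 or ileum replicate 2 or 3 (adjusted p from 0.075 to 0.19). Without colon replicate 3 Isg15 passed as well (-2.10, adjusted p = 0.0021), and its adjusted p ran from 0.0021 to 0.50 over the alternatives. In COL mice Bst2 was lower in colon (-1.57 ± 0.51, adjusted p = 0.021). That call was lost without colon replicate 2 or 3 or ileum replicate 2 (adjusted p from 0.059 to 0.14), and the difference was -2.19 without colon replicate 1. Rsad2 did not follow Cmpk2 across tissues (SPF -0.67 ± 0.42, adjusted p = 0.23, COL 0.54 ± 0.40, adjusted p = 0.35). The untreated colon values of Zbp1, with means of 8.75 CPM in SPF and 8.31 CPM in COL mice, lay between GF ileum at 1.70 CPM and colonized ileum at 31.1 to 35.3 CPM. GF colon was not analysed here.

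Over the 10 groups the order of the means differed from gene to gene. Zbp1 spanned 26.2-fold, from 1.65 CPM in GF ileum at 6 weeks to 43.4 CPM in DSS-treated SPF colon, and 7 of the 9 pairs of neighbours in its order overlapped. Ifi44 spanned 21.8-fold, from untreated SPF colon to DSS-treated COL colon, with 8 of 9 neighbouring pairs overlapping. Cmpk2 spanned 10.6-fold, from untreated SPF colon at 6.95 CPM to GF ileum at 73.5 CPM at 6 weeks, also with 8 of 9. Bst2 spanned 9.67-fold from GF to COL ileum at 10 weeks, Ifit1 7.09-fold and Ifit3 6.32-fold. Irf7 varied least, 2.01-fold from 59.1 CPM in untreated SPF colon to 119 CPM in COL ileum at 6 weeks, and all 9 of its neighbouring pairs overlapped.

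As a description over the 10 group means of log2 CPM, Mx2 had a Pearson correlation of 0.92 with the average of the other 9 genes, Ifit1 0.83, Ifit3 0.81, Zbp1 0.79 and Isg15 0.75. Rsad2 had 0.65, Bst2 0.62, Ifi44 0.50, Irf7 0.44 and Cmpk2 0.19. Cmpk2 was thus the member least like the rest, although its neighbour Rsad2 lies next to it on chromosome 12. A 3′ tag library counts a transcript near its end whatever its length, so the CPM of Rsad2 was divided by that of Cmpk2 in each library without a length correction.

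The Rsad2 to Cmpk2 ratio was 0.387, 0.325 and 0.310 in GF ileum at 6 weeks and 0.345, 0.241 and 0.171 at 10 weeks. It was 0.744, 1.41 and 0.735 in COL ileum at 6 weeks and 0.703, 0.701 and 0.782 at 10 weeks, above every GF library. In SPF ileum it was 0.632, 0.775 and 0.486 at 6 weeks and 0.400, 0.581 and 0.763 at 10 weeks, again above the GF libraries of the same age. Untreated colon was higher still, at 4.19, 7 and 3.11 in SPF and 4.24, 5.48 and 2.30 in COL mice, so that no ileum library reached an untreated colon library. With DSS it was 1.68, 2.54 and 4.86 in SPF and 0.977, 2.42 and 1.68 in COL colon. The ratio was chosen after its values were seen and is given with no test, and 3 libraries against 3 cannot go below p = 0.1 in an exact two-sided permutation test.

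**Figure D3:**
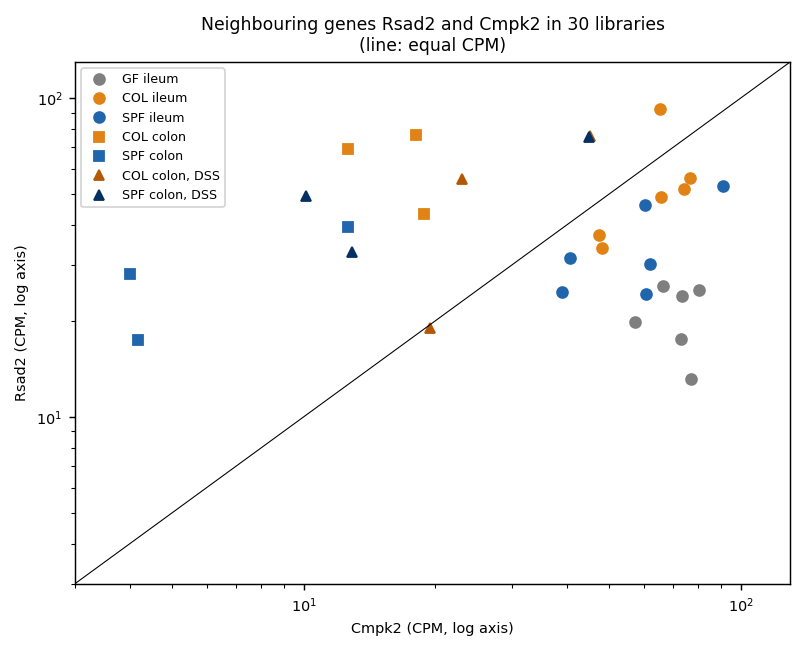
CPM of Rsad2 against CPM of its neighbour Cmpk2 on log axes, 1 point per library, with colour for microbial status, shape for tissue and treatment and a line of equal CPM. GF ileum libraries sit lowest at the right (ratio 0.171 to 0.387) and untreated colon libraries sit above the line at the left (ratio 2.30 to 7).

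Upstream in the pathway, the interferons themselves had few or no reads. Of 20 type I and type III interferon genes, 19 had 0 reads in all 30 libraries, Ifnb1 and Ifna4 among them. Ifnl2 had 11 reads in all. A count of 0 allows a level of up to 3 reads, which corresponds to 0.330 to 1.34 CPM at these depths. These limits cover counting error only, because the reads carry no molecular identifiers. Reads that matched several places were not counted, which lowers genes with near copies, and the limits leave out that loss. The 19 interferon genes without a read are thus not shown to be silent. The reads of Ifnl2 came from 1 SPF ileum library of 10 weeks, with 6 reads (0.886 CPM), and 1 DSS-treated SPF colon library, with 5 (0.870 CPM).

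The receptor genes did not pass in any of the 6 comparisons of colonization or DSS. For Ifnar1 the log2 difference lay between -0.53 and 0.41, for Ifnar2 between -0.40 and 0.83 and for Ifnlr1 between -0.13 and 0.91.

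Irf9, a DNA-binding part of the complex that binds the ISRE, rose in COL ileum at 6 weeks (1.23 ± 0.20, adjusted p = 0.00034) and at 10 weeks (1.00 ± 0.20, adjusted p = 0.0015) and in SPF ileum at 10 weeks (1.01 ± 0.20, adjusted p = 0.0021). In SPF ileum at 6 weeks Irf9 did not pass (0.50 ± 0.20, adjusted p = 0.13). Among 18 or 19 tested genes for sensors and adaptors of nucleic acid, Tmem173, which encodes the DNA-pathway adaptor STING, rose with DSS in SPF colon (2.79 ± 0.30, adjusted p = 4.8e-05) and in COL colon (2.24 ± 0.29, adjusted p = 0.00028). The RNA sensors Ddx58 and Ifih1 passed in none of the 6 comparisons, with log2 differences from -0.18 to 0.64 and from -0.03 to 0.64. In the order DSS in SPF colon, DSS in COL colon, SPF and COL ileum at 6 weeks, SPF and COL ileum at 10 weeks, 4 of 19, 1 of 19, 1 of 18, 3 of 18, 2 of 18 and 2 of 18 of these sensor genes rose. That is 5.26% with DSS in COL colon and 5.56% in SPF ileum at 6 weeks, near the share of all genes that rose there (4.14% and 4.37%). That share was 12.2% with DSS in SPF colon, 2.78% in COL ileum at 6 weeks and 4.22% and 5.1% in SPF and COL ileum at 10 weeks.

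A list of 50 other antiviral effectors gave a mixed picture. With DSS, 14 of 49 tested genes rose and 1 fell in SPF colon, where 12.2% of all genes rose and 11.9% fell. In COL colon 10 rose and 1 fell, where 4.14% of all genes rose and 3% fell. Ifi27 was the gene that fell in both (SPF -1.01 ± 0.25, adjusted p = 0.0096, COL -0.99 ± 0.25, adjusted p = 0.024). The COL call was lost without DSS replicate 1 or 3 or any 1 untreated library (adjusted p from 0.053 to 0.10). In ileum at 6 weeks 7 of 50 rose and 1 fell in SPF and 11 rose and 1 fell in COL mice, and at 10 weeks 16 rose in SPF and 15 rose and 1 fell in COL mice. The share of all genes that rose was 4.37% in SPF and 2.78% in COL ileum at 6 weeks and 4.22% and 5.1% at 10 weeks. Of all genes, 3.33% fell in SPF and 1.86% in COL ileum at 6 weeks and 4.04% in COL ileum at 10 weeks. The genes that fell in ileum were Ifi27 in SPF mice at 6 weeks (-0.67 ± 0.18, adjusted p = 0.023), Trim30d in COL mice at 6 weeks (-0.98 ± 0.28, adjusted p = 0.038) and Apol9b in COL mice at 10 weeks (-1.23 ± 0.31, adjusted p = 0.01). The call of Ifi27 was lost without GF replicate 2 or 3 or SPF replicate 1 or 3 (adjusted p from 0.088 to 0.12), that of Trim30d without GF replicate 1 or 2 or COL replicate 2 or 3 (adjusted p from 0.082 to 0.20) and that of Apol9b without GF replicate 2 (adjusted p = 0.12). Ifit1bl1, a near copy of Ifit1, was at 23.4, 15.1 and 13.4 CPM in GF and 123, 155 and 122 CPM in COL ileum at 6 weeks (3.21 ± 0.41, adjusted p = 0.00031). At 10 weeks Ifit1bl1 rose 25.4-fold in the fit (COL 4.67 ± 0.44, adjusted p = 8.2e-06), from 7.62, 11.1 and 8.93 CPM in GF to 159, 204 and 347 CPM in COL ileum. Samhd1, which depletes the nucleotides that viruses need, rose in SPF and COL ileum at both ages by 0.76 to 1.32. Oasl2 passed only with DSS in SPF colon (1.49, adjusted p = 0.033) and Mx1 only with DSS in COL colon (1.90, adjusted p = 0.031). The Oasl2 call was lost without DSS replicate 1 or any 1 untreated SPF library (adjusted p from 0.069 to 0.15), and that of Mx1 without DSS replicate 2 or 3 or untreated COL replicate 2 or 3 (adjusted p from 0.066 to 0.18).

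The genes that attach Isg15 to proteins or restrain the pathway were a list of 7, all tested. In SPF and COL ileum 6 and 3 rose at 6 weeks and 5 and 6 at 10 weeks, and with DSS 4 rose in SPF and 3 in COL colon. The shares of all genes that rose were, in the same order, 4.37%, 2.78%, 4.22%, 5.1%, 12.2% and 4.14%. Herc6, the main mouse ligase for Isg15, was at 5.57, 3.38 and 1.91 CPM in GF, 12.2, 14.4 and 13.5 CPM in COL and 11.9, 12.2 and 10.7 CPM in SPF ileum at 6 weeks (COL 2.18 ± 0.35, adjusted p = 0.00034, SPF 1.95 ± 0.35, adjusted p = 0.0006). Usp18, which removes Isg15 and blocks the type I receptor, rose in all 6 comparisons by 1.82 to 2.66, but only the call with DSS in SPF colon (1.82 ± 0.46, adjusted p = 0.01) held with every library left out. Usp18 lost its call in ileum at 6 weeks without GF replicate 2, SPF replicate 1 or 2 or COL replicate 3. At 10 weeks any 1 GF library, SPF replicate 1 or 2 or any 1 COL library ended it, as did DSS replicate 3 or any 1 untreated library in COL colon, at adjusted p of 0.051 to 0.17. Socs1, which restrains the receptor kinases, rose in all 6 by 1.90 to 4.13, and only its call in COL ileum at 6 weeks was lost, without GF replicate 2 or COL replicate 3 (adjusted p of 0.060 and 0.064).

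Interferon-gamma response genes, a list of 23 with 21 tested, rose in 13 of 21 in COL and 15 in SPF ileum at 6 weeks, in 19 in each at 10 weeks (with 1 that fell in COL ileum), and with DSS in 14 in COL and 15 in SPF colon. Of all genes, 2.78% rose in COL and 4.37% in SPF ileum at 6 weeks and 5.1% and 4.22% at 10 weeks, when 4.04% fell in COL ileum. With DSS 4.14% of all genes rose in COL and 12.2% in SPF colon. Irgm2, an immunity-related GTPase, rose in all 4 ileum comparisons, by 2.67 ± 0.21 in COL and 3.18 ± 0.21 in SPF mice at 6 weeks and by 4.17 ± 0.22 and 3.85 ± 0.22 at 10 weeks (adjusted p from 3e-12 to 3e-08). Psmb8, a subunit of the immunoproteasome, rose with DSS by 3.22 ± 0.28 in SPF (adjusted p = 6.5e-06) and 2.13 ± 0.27 in COL colon (adjusted p = 0.00021). The 1 gene that fell was Ifngr2, a chain of the interferon-gamma receptor (-0.81 ± 0.23, adjusted p = 0.026), and its call was lost without COL replicate 1 or 2 or GF replicate 2 or 3 (adjusted p from 0.072 to 0.098). In the order COL and SPF ileum at 6 weeks, COL and SPF ileum at 10 weeks, DSS in COL and in SPF colon, the median log2 difference of the list was 1.33, 1.87, 2.89, 2.82, 2.52 and 3.17, and that of the 10 antiviral genes 1.85, 1.43, 1.71, 1.69, 0.83 and 1.12. The lists were not tested against each other.

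**Figure D4:**
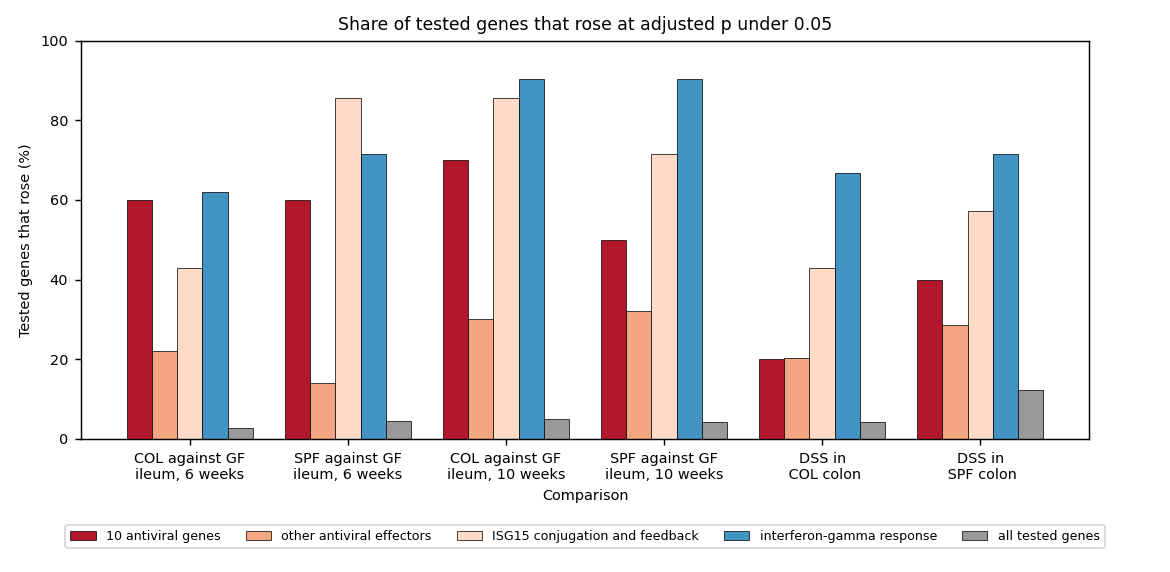
Share of tested genes with an adjusted p under 0.05 and a higher level, in percent, for the 10 antiviral genes, 3 related gene lists and all tested genes in 6 comparisons. The share of the 10 genes is 50 to 70% in the ileum comparisons and 20 and 40% with DSS, and that of all tested genes is 2.78 to 12.2%.

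Markers of other cells moved with some of these results. For the counts of markers over GF ileum, here and below, the share of all genes that rose was 2.78% in COL and 4.37% in SPF ileum at 6 weeks. At 10 weeks it was 5.1% and 4.22%. Of 8 T cell markers analysed, 6 rose in COL and 6 in SPF over GF ileum at 10 weeks, with summed levels of 45.9 to 95.6 and 69.2 to 158 CPM against 4.05 to 9.36 CPM in GF. At 6 weeks 2 rose in SPF ileum (18.8 to 39.7 CPM) and 0 in COL ileum (3.87 to 6.40 CPM, against 1.499 to 21.6 CPM in GF). Macrophage markers rose in 6 of 10 in COL and 5 of 10 in SPF ileum at 10 weeks (284 to 333 and 242 to 262 CPM, against 120 to 138 in GF), and in 1 of 10 in COL and 2 of 10 in SPF ileum at 6 weeks (175 to 196 and 235 to 249.9 CPM, against 113 to 189 in GF). Monocyte and neutrophil markers rose in 2 of 5 tested in SPF and 0 of 5 in COL ileum at 6 weeks (791 to 995 and 529 to 647 CPM, against 433 to 603 in GF). At 10 weeks they rose in 2 of 5 in each (522 to 666 in SPF and 762 to 957 in COL, against 443 to 518 CPM in GF). Smooth muscle markers went the other way, with sums at 6 weeks of 3429 to 4495 CPM in GF, 2316 to 2879 CPM in COL and 2161 to 3124 CPM in SPF ileum. At 10 weeks their sums were 2580 to 4001 CPM in GF, 2387 to 2585 CPM in COL and 231 to 2291 CPM in SPF ileum, with COL overlapping GF.

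B and plasma cell markers, a list of 10 with 9 tested in ileum, rose in 4 in COL and 3 in SPF ileum at 10 weeks, with sums of 1709 to 1875 and 1004 to 2107 CPM against 58.3 to 154 CPM in GF. At 6 weeks 3 rose in SPF and 0 in COL ileum, with sums of 776 to 972 CPM in SPF, 40.8 to 107 CPM in COL and 40.5 to 229.7 CPM in GF ileum, and 2 of the 10 markers had 0 reads in all COL libraries. In colon against ileum at 10 weeks, T cell markers were lower in 6 of 8 in SPF and 7 of 8 in COL mice and B and plasma cell markers in 4 of 9 in each. Of all genes, 17.2% in SPF and 14.3% in COL mice were lower in colon. The summed T cell markers were at 7.78 to 22.8 CPM in untreated SPF colon and 7.89 to 13.96 CPM in untreated COL colon, and the summed B and plasma cell markers at 191 to 332 and 229.5 to 538 CPM. Smooth muscle markers were higher in colon in 9 of 10 in SPF and 3 of 10 in COL mice, with sums in ileum of 231 to 2291 CPM in SPF and 2387 to 2585 CPM in COL mice. Of the 13807 genes tested, 4484 passed in either direction in SPF mice, 2376 of them lower in colon. In COL mice 3620 passed, 1980 of them lower in colon.

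Plasmacytoid dendritic cells, the main makers of interferon-alpha, were followed through 10 markers, of which 9 were tested in ileum. Of these, 1 rose in COL and 2 in SPF ileum at 6 weeks and 3 in each at 10 weeks, Irf8 in every one, a gene that other myeloid cells and B cells also express. Their summed level at 6 weeks was 433 to 511 CPM in GF, 448 to 550 CPM in COL and 505 to 570 CPM in SPF ileum, and at 10 weeks 478 to 503, 791 to 943 and 790 to 1056 CPM. Siglech, the most specific of them, was at 0.392 to 5.17 CPM in the ileum libraries and passed in none of these comparisons. In untreated colon the summed level of the 10 markers was 1331 to 1620 CPM in SPF and 1532 to 1872 CPM in COL mice, above every ileum library. Other cells also express some of these markers, so the sum does not measure plasmacytoid dendritic cells alone, in either tissue. With DSS the sum of the 10 markers was lower without overlap, at 344 to 861 CPM in SPF and 668 to 1085 CPM in COL colon. Those of the 10 members that passed with DSS all rose. With DSS 12.2% of all genes rose and 11.9% fell in SPF colon, and 4.14% rose and 3% fell in COL colon. In the colon 0 of 10 macrophage markers rose with DSS, and monocyte and neutrophil markers rose in 4 of 7 tested in SPF and 2 of 7 in COL colon, with sums of 1927 to 2169 and 1827 to 2039 CPM against 735 to 748 and 775 to 931 CPM untreated. Smooth muscle markers fell with DSS in 8 of 10 in SPF and 2 of 10 in COL colon (1088 to 3064 and 1437 to 4292 CPM, against 5731 to 6840 and 5485 to 5920 CPM). The part of these cells in the results was not tested.

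Beyond the members, the 8 genes whose pattern over the 10 group means was most like the average of the members, among 10874 genes with a mean log2 CPM of 2 or more, were Gm5431 (Pearson r = 0.94), Tnfsf13b (0.93), Herc6 (0.93), Arntl (0.92), Prdm1 (0.92), Nos2 (0.90), Cry1 (0.90) and Mybl2 (0.90). Gm5431 was at a mean of 1.22 CPM in GF, 15.7 CPM in COL and 12.8 CPM in SPF ileum at 6 weeks, and at 0.627, 23.7 and 25.4 CPM at 10 weeks. Prdm1, a transcription factor of plasma cells and gut epithelium, was at 16.4, 38.6 and 53.8 CPM at 6 weeks and at 12.2 CPM in untreated and 59.9 CPM in DSS-treated SPF colon. These correlations over 10 means that share libraries are a description.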

How the data were processed

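The 30 libraries were made with a 3′ tag kit (QuantSeq) from total RNA of ileum or colon and read on an Ion Torrent instrument, per the labels' protocols. The deposited values are raw read counts per gene symbol, 24746 symbols and 5 summary lines a library. The submitters' processing notes name Trimmomatic 0.36, FastQC 0.11.5, STAR 2.5.3a, HTSeq and mm10. The annotation and strand setting are not given in the sources used here. Reads that matched several places (28.0 to 36.9% of a library) were not counted, which lowers genes with near copies. Summary lines stayed out of library sizes.

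Counts were tested with edgeR 4.0.16 in R 4.3.3 (filterByExpr, TMM scaling, robust quasi-likelihood fit), adjusted by Benjamini and Hochberg over all genes of a fit: 12 colon libraries (12855 genes), 18 ileum libraries (13233) or, across tissues, all 30 (13807). The standard error is the log2 fold change divided by the square root of its F, and 95% intervals use the t distribution with the test's degrees of freedom. The test was checked on simulated data. Alternatives were DESeq2 1.42.0, its scaling in edgeR, no filter, a replicate block, only the libraries compared and each library left out. The 18 comparisons are 15 of groups and 3 interactions. The members and gene lists were chosen with earlier results of these data known. Of each list the 4 genes with the smallest p in a comparison could be named, besides the 10 members and core genes of the pathway (among them Irf9, the receptors, Usp18, Oasl2, Ifit2, Mx1, Ddx58 and Ifih1). Genes named as the only one that fell and Siglech were chosen after their values were seen. Overlap between groups was judged on CPM without TMM scaling. Likeness is the Pearson correlation over 10 group means. Same-numbered libraries of a pair of groups deviated together in every pair (r of 0.25, 0.19 and 0.16) in 1 case, ileum of 10 weeks from SPF and GF mice, a hint from the data and not from the labels. 1 core gene is not reported here.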

Additional observations from a re-analysis of the deposited data

How the results depend on the processing

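Alternatives were followed for 109 log2 differences of single members, those that had passed or were at least 0.5 in size. Smaller differences that had not passed, whose sign is less sure, were left out. Of the 1286 alternative values, 1198 kept their direction and their side of the threshold, 61 lost a call, 23 gained one and 4 changed sign. A value without an adjusted p was counted as kept, and a gene that failed the filter of an alternative had no value there. The sign changed for Ifit3 with DSS in COL colon, whose log2 difference ran from -0.23 (without COL DSS replicate 3) to 1.24 with a library left out, and in the interaction of DSS with status, without SPF DSS replicate 1, for Ifi44 (from -1.25 to 0.070), Cmpk2 (from -1.62 to 0.15) and Irf7 (from -0.81 to 0.12). None of these had passed. Apart from the fits with a library left out, the number of members called moved by over 1.5 times in 3 comparisons. For COL against SPF ileum at 6 weeks it was 1 by DESeq2 and 1 with only the libraries compared, for SPF against GF ileum at 10 weeks it was 2 with only the libraries compared, and for 10 against 6 weeks in COL ileum it was 2 by DESeq2 and 4 with only the libraries compared. The cause was not tested. With each library left out the number ran from 1 to 5 for SPF and from 5 to 6 for COL against GF ileum at 6 weeks, from 2 to 5 and from 4 to 6 at 10 weeks, from 3 to 5 for DSS in SPF colon, from 4 to 7 and from 3 to 4 for colon against ileum in SPF and COL mice, from 0 to 1 for COL against SPF in ileum at 6 weeks and in untreated colon, and from 0 to 2 for age in COL ileum. It stayed at 2 for DSS in COL colon and at 0 in the other comparisons. The fit with the replicate number as a block called the same number of members as without it in all 18 comparisons, 5 for SPF against GF ileum at 10 weeks. DESeq2 scaling moved the median of all genes by at most 0.014. Genes with few reads, Mx2, Bst2 and Ifi44, limit what these depths can show.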
